A study of Apis mellifera with 6 samples.

Results

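Of 19007 sites of accessible chromatin called in the brains of both female castes of the honey bee, 1152 were without a call in drone brains. These female sites absent from drones were the strongest and most frequent in the last few kilobases of the chromosomes, beyond the last annotated gene, where 29 of 35 female sites lacked a drone call. Outside the last 20 kb they were weaker sites, 76.0% of them inside genes. That share was 82.0% for sites called in all 6 lists and 76.0% for female sites also called in 1 drone list. They made up 4 of 24 female sites at the ecdysone response gene E75 and 3 of 29 at the ecdysone receptor gene Ecr. At the synaptic adhesion gene Nrx-1 they made up 3 of 17, against 6.06% of all female sites. These 3 genes come from lists in which 4 of 12 hormone genes and 10 of 25 neural genes held any. The hormone genes together held 11 of 109 (Wilson interval 5.73 to 17.2%, which includes 6.06%). The neural genes together held 15 of 146 (6.33 to 16.3%). At a −log10 q of at least 5 in every list, E75 held 2 female sites absent from drones.

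To obtain them, the peak lists of 2 queen (Q), 2 worker (W) and 2 drone (D) libraries were merged into sites wherever peaks overlapped by at least 1 bp, and a site was kept when it lay on 1 of the 16 chromosomes, overlapped a peak in Q1, Q2, W1 and W2, and overlapped none in D1 or D2. The rule took 1152 of the 59043 merged sites on chromosomes (1.95%), or 6.06% of the sites called in all 4 female lists. The sites were chosen by the presence or absence of peak calls in the 6 lists, so the sex difference itself is a description and was not tested.

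The assay was ATAC-seq, in which the transposase Tn5 inserts sequencing adapters into DNA that is free of nucleosomes, and only fragments of up to 100 bp were used. Queens and workers are diploid females, queens here having been grafted into queen cups as young larvae and workers reared in capped comb, whereas drones are haploid males. All bees of the 3 groups came from the same mother queen, were taken at emergence, before any flight or caste task, and had their optic lobes removed. Each library came from a pool of 5 brains, so its values average over animals and over all cell types of the central brain, and fewer cells with an open site cannot be told apart from a lower opening in each cell.

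Accessible sites mark promoters, enhancers and other stretches where proteins displace nucleosomes. In the honey bee, sex follows from the complementary sex determiner Csd: heterozygous eggs become females and hemizygous, unfertilised eggs become drones, with Fem and Dsx acting downstream, while the female castes diverge through larval feeding and the hormones that follow it, among them juvenile hormone and ecdysone. Chromosomes end in telomeres, repeated DNA bound by its own protective proteins and flanked by subtelomeric sequence that often occurs on several chromosomes.

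The lists held 28026 to 39158 peaks and rested on about 4093772 to 5700749 nucleosome-free fragments, as recovered from the peak values, with 5529183 in D1 and 4139477 in D2. The lowest summit pileup, the number of fragments stacked at a peak's summit, was 6 or 7 in every list. Peak names in the 4 female lists carried a shared label that those in both drone lists lacked. Whether the drone libraries came from another sequencing run is not given. Any run difference could not be told apart from sex in a comparison with drones. The sites absent from queens and called in both worker and both drone lists, which cross that division, numbered 1244, or 6.24% of those called in the 4 libraries. Absence from workers alone was rarer, with 164 sites (0.957%), and 2381 sites were called in both drone lists only (4.03% of merged sites).

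First, the strength of the female sites absent from drones was described. The median summit pileup was 14 fragments in Q1, 13 in Q2, 13 in W1 and 15 in W2, and single sites ranged from 6 to 101 fragments. Scaled to 1000000 fragments of the library (FPM), the medians were 2.46, 2.71, 3.09 and 3.66 in the same order, against 4.39, 4.59, 6.19 and 6.60 at the 16239 sites called in all 6 lists. The sites were therefore weaker than these in each female library. Other classes that miss a call were weak too: the 1616 female sites also called in 1 drone list had medians of 2.81, 2.92, 3.57 and 3.91 FPM, and sites absent from queens had 3.09 and 3.18 FPM in W1 and W2. Their median fold enrichment over the local background was 4.97, 5.15, 5.81 and 6.15. Ranked within its own list by −log10 q, with 100 for the strongest peak, the median site stood at the 35.2 and 34.7 percentile in queens and at 40.6 and 48.9 in workers. Merged sites were 210 bp wide in the median, against 257 bp for those in all 6 lists. Only 2 of them were among the strongest 10% of peaks in each of the 4 female lists, compared with 5 of those also called in 1 drone list and 1742 of all female sites.

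**Figure D1:**
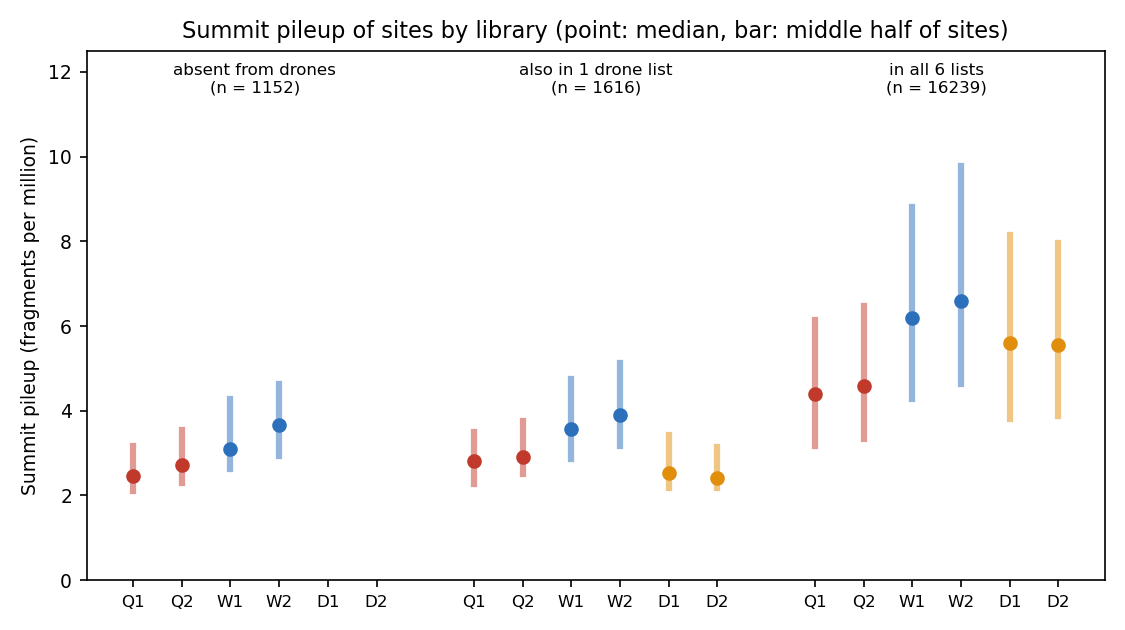
Summit pileup in FPM for each library, at the 1152 female sites absent from drones, the 1616 female sites also called in 1 drone list and the 16239 sites called in all 6 lists (points are medians, bars span the interquartile range of sites). The sites absent from drones lie below those in all 6 lists in each female library, with medians from 2.46 to 3.66 against 4.39 to 6.60, and they have no drone value because no drone peak was called.

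The depth of the drone libraries was compared with what a call would have needed. A member's mean female pileup, scaled to the depth of the drone library, was 16.95 fragments in the median in D1 and 12.7 in D2. The pileup needed for a call was 8 in D1 and 7 in D2 in the median, and it rose with the local background. All 1152 reached the needed pileup in both, assuming a local background as in the females, but only 601 in D1 and 300 in D2 exceeded it by a factor of 2 or more, and 58 and 25 by a factor of 3. That all reached it was nearly given by the rule, since each site was called in 4 female lists of similar depth and lowest pileup. This count does not show that drone depth was adequate. How many lack a drone call through counting error alone was not tested. Female sites called in 1 drone list only numbered 1616, of which 1243 were called in the deeper library D1 and 373 in D2. The 5 of them with the weakest drone call, picked for that, had a −log10 q of 2.00 to 2.19 in the single drone list. Over the whole class the median drone −log10 q was 6.73 in D1 and 4.77 in D2. The weakest sites inside the rule, in the genes LOC726948 and LOC551123 and in the calcium/calmodulin-dependent kinase gene Camkii, held 6 to 9 fragments in each female library. At the Camkii site these were 8 fragments in every one of the 4 libraries.

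The distance to the nearest drone peak was 2096 bp in the median and up to 50999 bp. Of the 1152 sites, 957 had no drone peak within 500 bp and 128 had none within 10 kb. A neighbouring drone peak within 200 bp was found for 74 sites (6.42%), and the closest, in LOC408884 on chromosome 6, had one 1 bp away. The sites absent from queens lay nearer to a queen peak, at 1580 bp in the median.

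**Figure D2:**
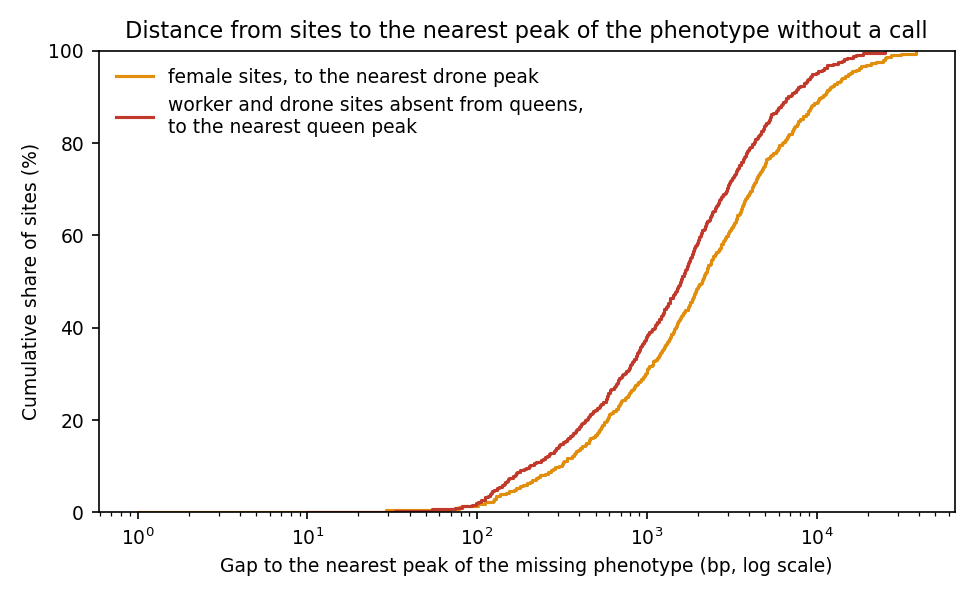
Cumulative share of sites (%) by the distance in bp (log scale) to the nearest peak of the phenotype without a call, for female sites absent from drones (orange) and worker and drone sites absent from queens (red). The orange curve lies to the right, with a median of 2096 bp against 1580 bp, and 6.42% of the sites absent from drones have a drone peak within 200 bp.

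Next, the position of the sites on the chromosomes was examined, which the rule did not use. Members made up 4.91% of female sites on chromosome 7 and 7.98% on chromosome 13, the lowest and highest of the 16. Within chromosomes the share changed at the far end, the end with the highest coordinates. In the last 5 kb, 21 of 26 female sites were absent from drones (80.8%, 95% Wilson interval 62.1 to 91.5, counting error only), against 6.06% of all female sites. From 5 to 20 kb the share was 8 of 26 (30.8%), from 20 to 100 kb 5 of 150 (3.33%) and further inside than 1 Mb 6.03%. The end was taken as the furthest coordinate in any peak list or gene, and on 6 chromosomes a member itself set it. Counted instead beyond the last annotated gene, which no peak sets, 29 of 35 female sites were absent from drones (82.9%, 67.3 to 91.9). Without chromosome 16, which held 7 of the 21, 14 of 19 in the last 5 kb remained (73.7%). At the low-coordinate end the share was 4 of 17 in the first 5 kb (23.5%, 9.56 to 47.3), 3 of the 4 being on chromosome 1.

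No worker and drone site absent from queens lay in the last 5 kb. All calls there, of any class, fell on 41 sites in Q1, 41 in Q2, 36 in W1 and 40 in W2, and on 21 in D1 and 22 in D2. These counts include the 21 members, which the rule placed in every female list and in neither drone list. They are therefore no separate measure of the sexes at these ends. Sites of drones only numbered 2 in the last 5 kb. The local background of a peak relative to the genome-wide one, a measure of how many fragments lie in the surrounding 10 kb, was 1.56, 1.59, 1.67 and 1.72 in the median for female peaks of the last 20 kb (Q1, Q2, W1 and W2) and 1.09 and 1.06 for drone peaks (D1 and D2). Elsewhere it was 1.45 to 1.54 in all 6 lists. MACS2 takes the local background as no lower than the genome-wide one, so this ratio has a floor of 1. The lower quartile for drone peaks of the last 20 kb was 1.00 in D1 and D2. Drone values near 1 therefore do not tell how few fragments lay there. The mean of the female medians was above that of the drones on 11 of 16 chromosomes. It was below on chromosomes 9 and 12, and on chromosomes 6, 10 and 15 both means stood at the floor of 1.00. At the sites themselves, with a drone peak within 2 kb to read the background from, the drone background in the last 20 kb was 1.00 against 1.68 in females (lower in drones at 15 of 17 sites), and elsewhere 1.36 against 1.59 (401 of 549). Female values at the sites themselves were read at peaks chosen for female calls, and drone values at a neighbouring peak. Female peaks of the last 20 kb also include the members. How much of either difference follows from that choice was not tested. The part of copy number, of repeated sequence and of the placing of reads in these differences was not tested either.

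**Figure D3:**
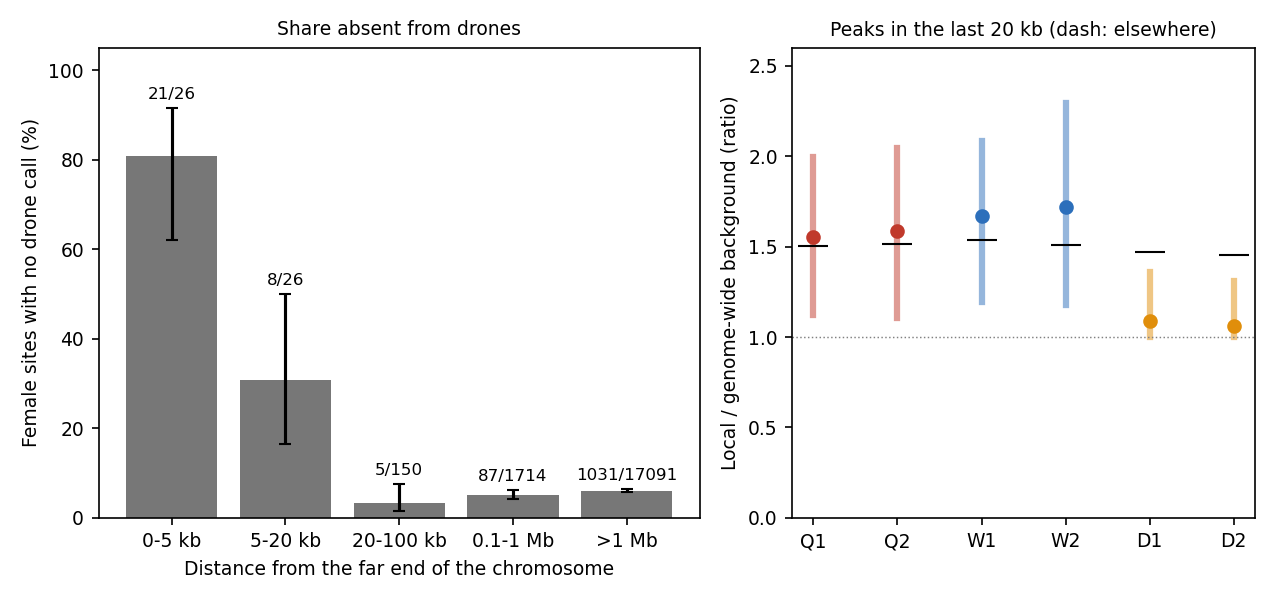
Left, the share of female sites without a drone call (%) by distance from the far end of the chromosome, with 95% Wilson intervals and the counts above each bar. Right, the ratio of local to genome-wide background at peaks of the last 20 kb in each library (points are medians, bars interquartile ranges, dashes the median of peaks elsewhere). This ratio has a floor of 1. The share is 80.8% in the last 5 kb and 6.03% beyond 1 Mb, and both drone libraries, at 1.09 and 1.06, lie below the 4 female libraries at 1.56 to 1.72.

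The 29 members of the last 20 kb lay on 11 chromosomes, with none inside a gene. Their median summit pileup was 26 fragments in Q1 and 25 in each of Q2, W1 and W2, compared with 14, 13, 13 and 15 at the 1123 members elsewhere. The median of their mean percentile was 71.6 against 37.7 elsewhere. Of the 58 strongest members, the top 5% by mean percentile, 19 were in the last 20 kb (32.8%) and 3 in the first 5 kb of chromosome 1.

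The strongest of all was at chromosome 12, 11512429 to 11512531 (assembly Amel HAv3.1, as are all coordinates), 1318 bp from the end and 5994 bp beyond the nearest gene, LOC408387. It held 56 and 44 fragments in Q1 and Q2 and 53 and 58 in W1 and W2, with a fold enrichment of 20.1 to 28.8, and the nearest drone peak was 945 bp away. In FPM both workers (12.6 and 14.2) were above both queens (9.82 and 9.17). This order held at 50.3% of members and at 68.2% of all female sites. The next was at the opposite end of another chromosome, at chromosome 1, 3075 to 3169, with 54, 45, 56 and 50 fragments in Q1, Q2, W1 and W2. These were the 2 members in the top 10% of every female list, and neither had a drone peak nearer than 945 bp. The third, chromosome 2, 16088600 to 16088810, was the last site of its chromosome, with 41, 43, 24 and 35 fragments in the same order, so that both queens were above both workers in fragments, while in FPM (7.19, 8.97, 5.71 and 8.55) the castes overlapped. The nearest drone peak was 5887 bp away.

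Chromosome 16 ended in the longest run, 7 female sites in a row over 4.80 kb (7233348 to 7238146) without a site of all 6 lists between them. Drones were not without calls there, as 1 peak of D1 and 1 of D2 lay between the members. The 7 sites held 19 to 39 fragments in Q1, 21 to 35 in Q2, 24 to 38 in W1 and 21 to 39 in W2. The most enriched of them, at 7235487 to 7235705, held 39, 33, 38 and 27 fragments in the 4 libraries. In the last 5 kb of this chromosome 9, 8, 7 and 8 sites were called in Q1, Q2, W1 and W2 and 1 in each drone library. The female counts include the 7 members, which the rule kept out of both drone lists. Chromosome 8 ended likewise in a run of 4 members, from 12708219 to 12716499, with 1 peak of D2 and none of D1 between them.

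**Figure D4:**
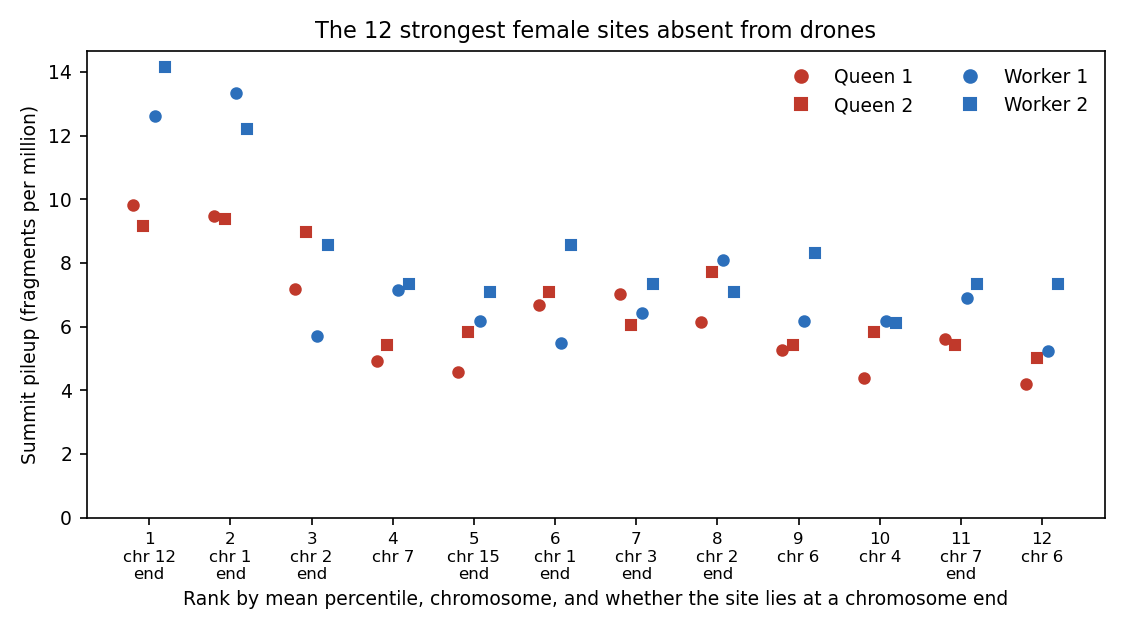
Summit pileup in FPM in each female library for the 12 members with the highest mean percentile, labelled by rank, chromosome and whether they lie in the last 20 kb or first 5 kb of the chromosome (end). Of the 12, 8 lie at an end, and the first of them, on chromosome 12, reaches 9.82 and 9.17 in queens and 12.6 and 14.2 in workers.

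Among the 12 strongest, 4 lay away from chromosome ends. A site in LOC100578236 on chromosome 7 (3099902 to 3100223) held 28, 26, 30 and 30 fragments in Q1, Q2, W1 and W2, and both workers (7.14 and 7.33 FPM) were above both queens (4.91 and 5.42). One shared by the overlapping genes LOC409448 and LOC102655446 on chromosome 6 (5335325 to 5335526) held 30, 26, 26 and 34, one in LOC102654975 on chromosome 4 (8396977 to 8397169) 25, 28, 26 and 25, and one on chromosome 6 (13625430 to 13625923), 35650 bp from the nearest gene, 24, 24, 22 and 30. In FPM both workers were above both queens at these 3 as well, at 6.19 and 8.31 against 5.26 and 5.42, at 6.19 and 6.11 against 4.39 and 5.84, and at 5.24 and 7.33 against 4.21 and 5.00. The gene table gives no description for these genes, so no role is stated.

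Relative to genes, 854 of the 1152 sites lay inside a gene body (74.1%, 95% Wilson interval 71.5 to 76.6), 62 of them inside lncRNA genes only, and 298 (25.9%) between genes. The share was 76.0% (73.8 to 78.0) for female sites also called in 1 drone list, an interval that overlaps that of the members, and 71.3% for sites absent from workers. It was 82.0% for sites of all 6 lists, 85.1% for sites absent from queens and 82.6% for sites of drones only. Leaving out the last 20 kb of each chromosome brought the share of members to 76.0%. Few members were at gene ends, where promoters lie: 70 (6.08%, 4.84 to 7.61) were within 200 bp of one, against 29.5% of sites in all 6 lists, 13.9% of female sites also called in 1 drone list, 15.2% of those absent from workers, 11.0% of those absent from queens and 5.04% of those of drones only. Without drone replicate 1 the share of members was 10.6%, close to that of sites absent from queens. The sites of all 6 lists were also the strongest, and the part of strength in these shares was not tested. The table gives no strand or exons, so the promoter end, untranslated regions, exons and introns were not told apart. A member lay in the body or within 2 kb of 867 of 12255 genes (7.07%), of which 690 held 1 member, 112 held 2 and 65 held more. Their median length was 34.3 kb, against 4.33 kb for the 9149 genes with any female site, and a longer gene holds more sites of every class.

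Runs of neighbouring members were counted next. When female sites were taken in order along the chromosome, 889 members had no member beside them and 263 (22.8%) were in runs of at least 2. The same count for sites absent from queens, among those called in both worker and both drone lists, was 202 of 1244 (16.2%), with no run longer than 4. Whether either count differs from that of sites in random order was not tested. The run of 5 lay in LOC100578665 on chromosome 5 (6385923 to 6417233), a protein-coding gene that overlaps LOC411079 and the microRNA gene Mir9866 there. Of the 7 female sites of LOC100578665, 5 were members and 1 was called in all 6 lists. Its first member held 18, 20, 19 and 23 fragments in Q1, Q2, W1 and W2 and lay 17588 bp from any drone peak. The last held 22, 14, 18 and 14 in the same order. LOC409795 on chromosome 3 held 6 members of 14 female sites (42.9%), spread over 9709051 to 9837005, the highest share among the 4 genes with 6. The member at 9820819 to 9821025 held 15, 11, 16 and 23 fragments, with both workers above both queens in FPM (3.81 and 5.62 against 2.63 and 2.29). The other genes with 5 or 6 members had 10.4% to 28.6% of their female sites among them, 2 of these genes (LOC113219153 and LOC113218945) being lncRNA genes.

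**Figure D5:**
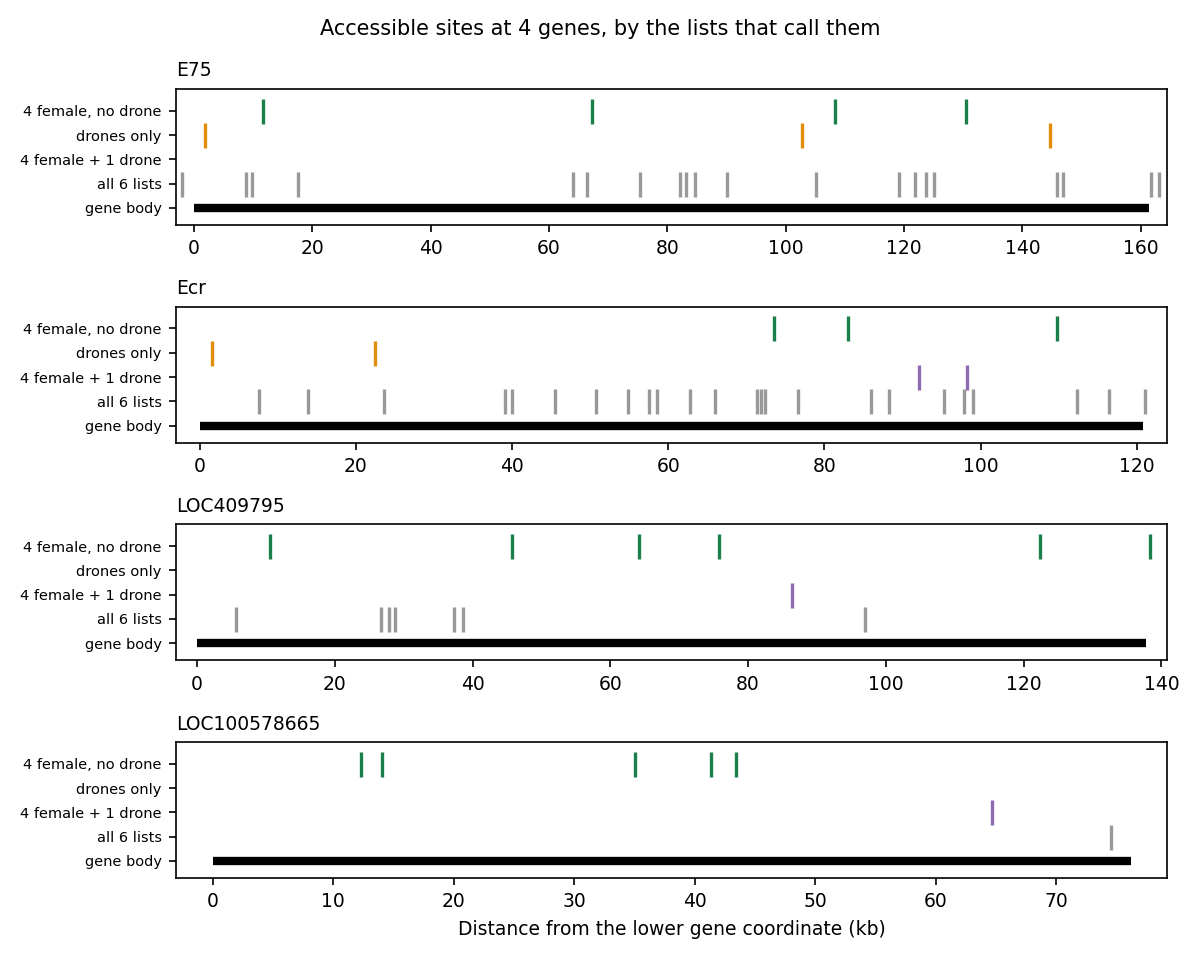
Sites at E75, Ecr, LOC409795 and LOC100578665 by the lists that call them, plotted as distance from the lower gene coordinate in kb, with the gene body as a black bar. Members (green) are 4 of 24 female sites at E75, 3 of 29 at Ecr, 6 of 14 at LOC409795 and 5 of 7 at LOC100578665, and they lie between sites called in all 6 lists at E75 and Ecr.

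Genes of known pathways were then read against the 6.06% of all female sites that are members. In FPM both workers were above both queens at 50.3% of members and 68.2% of all female sites. They were below both at 4.51% and 3.05%. Single sites below are to be read beside these shares. Of the ecdysone and juvenile hormone list, 12 of 28 names were matched by symbol, and 11 of their 109 female sites were members (10.1%, 95% Wilson interval 5.73 to 17.2), in 4 genes. Ecr encodes the ecdysone receptor and Usp its nuclear partner. Ecr held 3 members of 29 female sites, of which the most enriched, at chromosome 8, 9709835 to 9710178, held 18, 13, 19 and 22 fragments in Q1, Q2, W1 and W2, and both workers (4.52 and 5.37 FPM) were above both queens (3.16 and 2.71). Usp held 1 of 16, with 13, 12, 11 and 16 fragments.

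E75 and E74 are nuclear receptor and ETS factor genes that ecdysone induces early in Drosophila. E75 held 4 members of 24 female sites (16.7%). The strongest, at chromosome 11, 10318731 to 10319087, held 20, 16, 32 and 26 fragments in Q1, Q2, W1 and W2, or 3.51, 3.34, 7.62 and 6.35 FPM. Both workers were above both queens, as at 68.2% of all female sites. The E75 member at 10340936 to 10341185 was high in W1 alone, with 14, 12, 20 and 10 fragments. The same gene held 3 sites of drones only and 20 of all 6 lists. With a −log10 q of at least 5 in every list E75 held 2 members and Ecr 3. E74 held 3 of 31, one of them with 24, 32, 31 and 36 fragments at chromosome 3, 3437911 to 3438228. The insulin receptor InR-2, the insulin-like peptide gene ILP-2 and the juvenile hormone response gene Kr-h1 had 4, 2 and 3 female sites and no member.

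In the list of neural signalling genes 25 of 37 names were matched, and 15 of 146 female sites were members (10.3%, 6.33 to 16.3), in 10 genes. Nrx-1 encodes neurexin, a presynaptic adhesion protein, and held 3 of 17. Its strongest member, at chromosome 5, 2585563 to 2585752, held 12, 16, 10 and 12 fragments in Q1, Q2, W1 and W2. NLG-5 encodes a neuroligin, a postsynaptic partner of neurexins, and held 1 of 8, with 15 fragments in each of the 4 libraries. Subunits of the nicotinic acetylcholine receptor, the main excitatory receptor of the insect brain, had 2 members of 13 at nAChRa3, 2 of 10 at nAChRa4, 1 of 7 at nAChRa6 and 1 of 12 at nAChRa7. The stronger nAChRa3 member (chromosome 5, 12170896 to 12171187) held 23, 21, 30 and 30 fragments, with both workers (7.14 and 7.33 FPM) above both queens (4.03 and 4.38). At nAChRa4 the order was the opposite: its stronger member (chromosome 7, 7659574 to 7659881) held 15, 15, 10 and 8 fragments, or 2.63, 3.13, 2.38 and 1.95 FPM, and both queens were above both workers. The voltage-gated calcium channel gene Cac held 2 of 20, the sodium channel gene Para 1 of 12, the dopamine receptor gene DopR2 1 of 6 and the tyramine receptor gene TyrR 1 of 4.

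Sex determination genes were next. Csd had 2 female sites, of which 1 was a member, at chromosome 3, 11770162 to 11770261. It was in the 2 kb beside Csd, 371 bp from LOC408733, and held 12, 14, 7 and 8 fragments in Q1, Q2, W1 and W2, both queens being above both workers in fragments and in FPM (2.10 and 2.92 against 1.67 and 1.95). The nearest drone peak was 1662 bp away. Dsx had 10 female sites and no member, 9 of them called in all 6 lists, and Fem and tra2 had no member among 1 and 3 sites. In total 1 of 16 female sites of the 4 matched genes was a member (6.25%), near the 6.06% of all female sites. Of a list of other transcription factors that the study named in its footprint and network analyses, which leaves Ecr and Usp to the hormone list, 2 of 24 were matched: Ubx, a Hox gene, held 1 member of 17 with 10, 10, 7 and 11 fragments, and Mad, which transduces BMP signals, held none of 23. The 7 matched clock and vision genes held none of 22, for which the 95% Wilson interval reaches 14.9%. Of the 22 female sites 16 were at the gene For, and Per, Cry2 and the opsin gene Blop had 2 each. The opsin genes Uvop, Lop1 and Lop2 had no female site, so the list says little about clock genes or opsins.

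Genes outside these lists were chosen after their values were seen. Foxp, a forkhead factor gene, held 4 members of 14 female sites, and the strongest (chromosome 13, 5462527 to 5462721) held 26, 19, 15 and 20 fragments in Q1, Q2, W1 and W2. The Hox gene Antp held 3 of 15, and the one at chromosome 16, 3988396 to 3988873, held 20, 17, 13 and 17. Queens and workers overlapped in FPM at this Antp site (3.51 and 3.54 against 3.09 and 4.15). Br-c, an ecdysone response gene, held 1 of 5, with 12, 10, 11 and 15 fragments.

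Finally, queens and workers were compared at the same sites, a difference on which the rule placed no condition beyond a call in each. The median summit pileup was 2.58 ± 0.180 FPM in queens and 3.38 ± 0.403 FPM in workers (SD, n = 2 each), a ratio of 1.31, and both workers were above both queens. The two-sided exact permutation test over the 6 ways of assigning 2 of the 4 libraries to workers gave p = 0.333, which is the smallest it can give. At all 19007 female sites the ratio was 1.44. Both workers were above both queens at 580 members (50.3%), against 68.2% of all female sites, and below both at 52 (4.51%), against 3.05%, while at 520 the castes overlapped. By rank within a list the median was 34.97 ± 0.338 in queens and 44.7 ± 5.88 in workers, a difference of 9.74 percentile points (exact permutation p = 0.333, n = 2 each). At equal list length this difference was -0.372 points (exact permutation p = 1.0), so the order of the castes by rank turned with list length, whereas by pileup it did not. Without worker replicate 2 the difference was 3.48 points by rank and 0.511 FPM by pileup, against 0.796 FPM with it. Both workers outranked both queens at 362 members (31.4%, against 38.0% of female sites) and both queens outranked both workers at 143 (12.4%, against 9.85%).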

How the data were processed

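Nucleosome-free ATAC-seq peaks of 6 libraries (queen, worker and drone, 2 pools of 5 brains each, grouped by sample title) were compared. The authors aligned reads with BWA 0.7.17 to Amel HAv3.1, took fragments no longer than 100 bp as nucleosome-free and ran MACS2 on every library separately, with a genome size of 270000000 bp. Treatment of duplicates is not given in the sources used here. The deposited lists give, per peak, a fold enrichment (a ratio of summit pileup to local background), −log10 p-values and q-values, and a score derived by MACS2 from the q-value.

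No reads outside peaks were used, so no count model was fitted and a site without a peak has no value. Fold and −log10 p were solved together for a whole summit pileup and a local background (100% of peaks, tolerance 0.05, tested on simulated data). The commonest background and the spacing of local backgrounds gave the number of fragments. Sites, classes and gene overlaps were computed with Python 3.11.15, numpy 2.4.6, pandas 2.3.3 and scipy 1.17.1. Gene starts and ends came from a RefSeq table of the same assembly (12398 genes, 12255 used), counted with 2 kb on either side. Shares carry 95% Wilson intervals, which cover counting error only. Queen and worker medians were compared by an exact permutation test over libraries, whose replicates are separate pools.

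The members, gene lists and tests were chosen with earlier results of these data known. Named sites were the 12 with the highest mean percentile, the 12 genes with most members and the members at listed genes. Alternatives were a stricter −log10 q (5 or more), lists of equal length (28026 peaks), other overlaps and windows, a replicate block and each library left out. Sequence content and motifs were not analysed here, because no genome sequence was used.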

Additional observations from a re-analysis of the deposited data

Results flagged for a closer look

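Unplaced scaffolds, which the comparisons above leave out, held sites of the same kind. Of 313 sites called in all 4 female lists on sequences outside the 16 chromosomes, 27 had no drone call (8.63%, against 6.06% on chromosomes). They lay on 17 scaffolds, with at most 4 on any scaffold and none on the mitochondrial sequence. The absence of a drone call was set by the rule, and only the share is given for comparison.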

How the results depend on the processing

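Of 78 alternative values, 69 kept their direction and, for shares and counts, stayed within the interval or within 1.5 times the main count. The 69 include the replicate block values, which could not change. Requiring a −log10 q of at least 5 in the female lists alone left 519 members, fewer by construction. Gene ends taken as 2 kb in place of 200 bp held 23.4% of members, and the last 20 kb in place of the last 5 kb gave 55.8% of female sites absent from drones. At equal list length the worker minus queen difference in percentile was -0.372. With each library left out in turn, members numbered 1341 to 2406 (1866 without queen replicate 2 and 2406 without drone replicate 1, fewer lists having to agree), the share near gene ends was 5.89% to 10.6% (10.6% without drone replicate 1), the share in gene bodies 74.3% to 75.8%, the share at the far end 75.9% to 84.6%, the percentile difference 3.48 to 10.96 and the pileup difference 0.511 to 0.964 FPM (both lowest without worker replicate 2). Ecr held 5 members without drone replicate 1. The replicate block restricted only the permutations, so the differences of 9.74 points and 0.796 FPM were the same by construction. Its exact permutation p was 0.5 for both, the smallest possible. Deviations of same-numbered libraries correlated at 0.0408, 0.00609 and 0.0146, so replicate numbers mark no pairs.

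The alternatives for chromosome ends, E75, Ecr and pileup were chosen after seeing the data. The planned sequence content and motif counts were not run, since the genome sequence was not used here. Depth limits sites whose scaled pileup is near the needed one, where a drone call can be missed at an open site. These are not only sites near 6 to 8 fragments. The E75 member at chromosome 11, 10222075 to 10222282, held 27, 23, 25 and 38 fragments in Q1, Q2, W1 and W2. Its scaled pileup was 1.51 times the needed one in the drone library where that ratio was lowest. Causes of the changed values were not tested unless given.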
